A study of Rattus norvegicus with 6 samples.

Results

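Genes of the motor neuron and of cholinergic transmission were followed in the spinal cord of rats with bone cancer pain (BCP). The set was defined by the names Chat, Slc5a7, Slc18a3, Ache, Chrm2, Chrna4, Chrnb2, Mnx1, Isl1 and Prph. These names were chosen for what the genes are known to do, but with earlier results of these data known. A row of the deposited gene table was taken where its gene name was equal to one of them. Of the 10 names 9 had a row among the 30957 genes of the table, and Slc18a3 had none under that name and was not analysed here. Of these 9 genes 8 were among the 14908 genes with enough counts to be tested, and Mnx1 was not.

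RNA came from the lumbar enlargement of Wistar rats on day 14 after Walker 256 cells, a line of rat mammary carcinoma, had been placed in the marrow cavity of the left tibia. The BCP group of 3 libraries received living cells and the sham group of 3 libraries received heat-killed cells, so both groups had the operation and both received cells. The rats were adult females per the methods of the study. The cord was split lengthwise without its meninges and the side of the injected leg was used whole, so every library mixed dorsal horn, ventral horn and white matter. Total RNA was depleted of ribosomal RNA, made into strand-specific libraries and sequenced, and each gene had an unnormalized read count and an FPKM value (a level normalized to gene length and library size) in each library. Neither the labels nor the methods state whether a library held the RNA of 1 rat, so the p-values below measure the spread between these libraries, which may be technical.

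Acetylcholine is the transmitter by which spinal motor neurons drive skeletal muscle. A motor neuron takes up choline, joins it to an acetyl group, loads the product into vesicles and releases it at the neuromuscular junction and, through collaterals, onto Renshaw cells in the ventral horn, where an esterase ends the signal. Smaller groups of cholinergic interneurons lie around the central canal and in the dorsal horn, and in the spinal cord acetylcholine acts on muscarinic and nicotinic receptors of many neurons, including those that carry pain. Chat (choline acetyltransferase) makes acetylcholine, Slc5a7 (the high-affinity choline transporter) supplies the choline, Slc18a3 (the vesicular acetylcholine transporter) fills the vesicles and Ache (acetylcholinesterase) breaks the transmitter down. Chrm2 is a muscarinic receptor, Chrna4 and Chrnb2 are subunits that form the main heteromeric nicotinic receptor of the brain, Mnx1 and Isl1 are transcription factors of motor neuron identity, and Prph (peripherin) is an intermediate filament of neurons with axons in peripheral nerves.

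The promoters of 6 of the 10 genes are shown. Chrna4, Chrnb2 and Prph had the lowest log2 fold changes of the set, Slc5a7 is the other transporter of the cycle, and Chat and Slc18a3 share a locus. Each run is the 250 bases before a RefSeq start site of the gene in the GRCr8 build, read 5′ to 3′ on the strand of the gene. For Chrna4 and Prph the run lies inside the RefSeq span of the gene (chr3:188506802-188535558 and chr7:132096888-132101070), not upstream of it. The regions are chr16:7723417-7723666 (minus strand) for Chat, chr16:7722815-7723064 (minus strand) for Slc18a3, chr9:7953510-7953759 (minus strand) for Slc5a7, chr3:188534527-188534776 (minus strand) for Chrna4, chr2:177487307-177487556 (minus strand) for Chrnb2 and chr7:132097039-132097288 (plus strand) for Prph. Capitals mark a GC box (GGGCGG, or CCGCCC where it lies on the other strand) and a TATA box (TATAAA, or TTTATA on the other strand).
Chat: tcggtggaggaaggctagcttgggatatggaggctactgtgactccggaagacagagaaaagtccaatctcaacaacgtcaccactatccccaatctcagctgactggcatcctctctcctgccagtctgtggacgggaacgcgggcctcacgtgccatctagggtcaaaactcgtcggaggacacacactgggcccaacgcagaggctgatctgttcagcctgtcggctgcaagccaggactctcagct
Slc18a3: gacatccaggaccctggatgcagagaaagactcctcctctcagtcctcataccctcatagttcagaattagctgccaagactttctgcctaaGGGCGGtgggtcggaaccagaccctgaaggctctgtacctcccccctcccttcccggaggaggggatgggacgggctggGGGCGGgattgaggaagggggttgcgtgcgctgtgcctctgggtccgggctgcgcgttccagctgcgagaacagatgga
Slc5a7: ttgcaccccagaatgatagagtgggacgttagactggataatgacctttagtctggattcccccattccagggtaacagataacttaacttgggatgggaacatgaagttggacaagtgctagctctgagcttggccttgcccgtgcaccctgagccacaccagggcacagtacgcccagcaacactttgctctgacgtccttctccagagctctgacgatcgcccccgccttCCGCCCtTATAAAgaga
Chrna4: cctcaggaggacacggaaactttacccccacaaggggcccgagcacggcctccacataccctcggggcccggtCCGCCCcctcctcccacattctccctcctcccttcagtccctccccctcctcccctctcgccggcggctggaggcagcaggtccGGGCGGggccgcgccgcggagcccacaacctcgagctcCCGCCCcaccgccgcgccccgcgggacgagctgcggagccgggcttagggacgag
Chrnb2: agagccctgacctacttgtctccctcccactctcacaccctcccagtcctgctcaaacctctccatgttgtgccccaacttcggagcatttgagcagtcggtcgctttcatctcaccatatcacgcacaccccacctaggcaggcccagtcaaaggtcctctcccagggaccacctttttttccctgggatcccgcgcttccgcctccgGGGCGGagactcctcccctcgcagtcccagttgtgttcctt
Prph: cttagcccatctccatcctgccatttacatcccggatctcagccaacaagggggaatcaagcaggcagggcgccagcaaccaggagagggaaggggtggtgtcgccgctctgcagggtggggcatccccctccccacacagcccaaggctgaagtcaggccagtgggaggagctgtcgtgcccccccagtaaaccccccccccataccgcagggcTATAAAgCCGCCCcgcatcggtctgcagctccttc

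All 10 genes had a RefSeq promoter in the GRCr8 table. For Ache, Chrm2, Chrna4 and Prph the start site used lies inside the RefSeq span of the gene. A GC box lay in the 250 bases of 7 of the 10, in Slc5a7, Slc18a3, Ache, Chrm2, Chrna4, Chrnb2 and Prph, whereas 30.5% of the 33469 RefSeq promoters of that length held one. The letters of a TATA box lay in 3 of the 10, in Slc5a7, Mnx1 and Prph, against 12.9% of all promoters. They began at position −10 from the start site in Slc5a7, at −35 in Prph and at −189, on the other strand, in Mnx1. The letters TAATTA, a core that many homeodomain factors bind, were in 0 of the 10 windows and in 4.86% of all. The promoters of the set had GC contents between 53.2% and 75.6%, and the median over all promoters was 51.2%. In Chrna4 the GC box stood 3 times, and in the Chat window neither box was present. These matches are letters in a window, and no measurement of binding was made here. RefSeq places Slc18a3 at chr16:7719953-7722814 in GRCr8, inside the span of Chat at chr16:7663665-7723416 and on the same strand, with 602 bases between the start sites. The deposited coordinates are those of Rnor_6.0 and had no row for Slc18a3, so whether reads of Slc18a3 were counted under Chat was not tested.

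Across the 6 libraries the counts on genes summed to between 11779485 and 15004290, and the factors of TMM normalization lay between 0.982 and 1.02. Within a group, no pair of libraries matched to within counting error (chi-square per degree of freedom 3.60 to 6.30), so each was counted as a sample of its own. The labelled tissue was checked against its markers. The 14 genes used as pan-neuronal markers, such as Map2 and Tubb3, took between 0.733% and 0.832% of the counts, and 8 genes of oligodendrocyte myelin were abundant in all libraries.

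Of the genes for the synthesis, uptake and breakdown of acetylcholine, Slc5a7 and Ache were lower in BCP rats and Chat did not pass the test. Levels below are counts normalized to library size (CPM), and a gene passed the test when its adjusted p was below 0.05 by edgeR's quasi-likelihood test with Benjamini-Hochberg adjustment over all 14908 tested genes.

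Chat (ENSRNOG00000025012, chr16:8576864-8686131 in Rnor_6.0) was at 58.3, 77.5 and 54.3 CPM in sham libraries 1, 2 and 3 and at 58.6, 57.2 and 51.6 CPM in BCP libraries 1, 2 and 3. These values came from 764, 1110 and 804 counts in the sham libraries, against 693, 800 and 682 counts in the BCP libraries. Sham library 2 stood above all other libraries, whose values were mixed between the groups, so the groups overlapped. The log2 fold change of Chat was −0.18 with an SE of 0.139 and a 95% interval from −0.52 to 0.15 (adjusted p = 0.400 by edgeR), and it was −0.01 (adjusted p = 0.937) when sham library 2 was left out.

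Slc5a7 (ENSRNOG00000010597, chr9:5294381-5330815) was at 159, 165 and 153 CPM in the sham libraries and at 157, 129 and 131 CPM in the BCP libraries. BCP library 1 lay inside the sham range and the other two BCP libraries lay below it. The log2 fold change of Slc5a7 was −0.20 (SE 0.068, 95% interval −0.34 to −0.05, adjusted p = 0.0439 by edgeR), the adjusted p nearest to the threshold among the genes of the set that passed.

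Ache (ENSRNOG00000050841, chr12:22472358-22478753) was at 160, 181 and 168 CPM in the sham libraries and at 154, 148 and 146 CPM in the BCP libraries. All BCP libraries lay below all sham libraries. Ache fell by 0.19 on the log2 scale (SE 0.0525, 95% interval of the log2 fold change −0.30 to −0.08, adjusted p = 0.00954 by edgeR), which is a level lower by 12.3%.

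**Figure D1:**
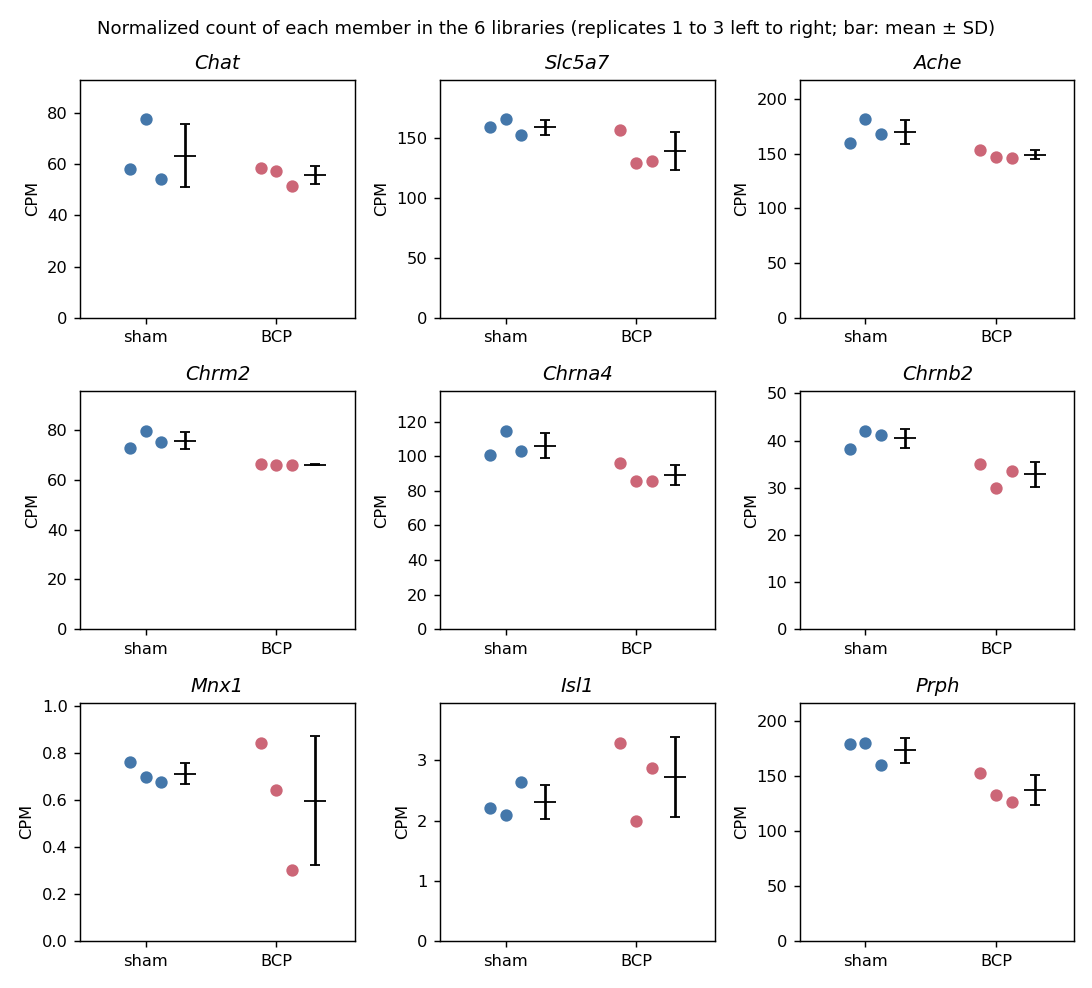
Normalized counts (CPM) of the 9 genes with a row, in each sham library (blue) and each BCP library (red), with replicates 1 to 3 from left to right and the mean ± SD of each group as a bar on an axis that starts at 0. For Ache, Chrm2, Chrna4, Chrnb2 and Prph the red points lie below the blue ones, and for Chat 1 sham library at 77.5 CPM stands above the rest.

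The receptor genes were lower in BCP rats, and all 3 of them passed the test. The muscarinic receptor Chrm2 and the nicotinic subunits Chrna4 and Chrnb2 each had every BCP library below every sham library.

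Chrm2 (ENSRNOG00000046972, chr4:64088900-64091090), whose receptor couples to inhibitory G proteins and is also the autoreceptor of many cholinergic neurons, was at 72.6, 79.5 and 74.9 CPM in the sham libraries and at 66.4, 65.7 and 66.0 CPM in the BCP libraries. The BCP libraries lay within 1 CPM of each other, closer together than the sham libraries. The log2 fold change of Chrm2 was −0.20 (SE 0.0596, 95% interval −0.32 to −0.07, adjusted p = 0.0174 by edgeR).

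Chrna4 (ENSRNOG00000011202, chr3:176530560-176548064) was at 101, 115 and 103 CPM in the sham libraries and at 95.9, 85.8 and 85.5 CPM in the BCP libraries, again without overlap. It fell by 0.25 on the log2 scale (SE 0.0623, 95% interval of the log2 fold change −0.38 to −0.12, adjusted p = 0.00398 by edgeR). Its partner Chrnb2 (ENSRNOG00000020778, chr2:189088570-189096785) was at 38.2, 42.0 and 41.2 CPM in the sham libraries and at 35.1, 29.9 and 33.5 CPM in the BCP libraries. BCP library 1 was the nearest to the sham libraries for both subunits. Chrnb2 fell by 0.30 on the log2 scale (SE 0.0828, 95% interval of the log2 fold change −0.48 to −0.13, adjusted p = 0.00859 by edgeR).

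The proportion between the subunits could be compared per length. The ratio of Chrna4 to Chrnb2 in FPKM was 1.14 ± 0.05002 (SD, n = 3) in the sham libraries and 1.18 ± 0.0681 (SD, n = 3) in the BCP libraries, with values of 1.149, 1.186 and 1.087 against 1.189, 1.247 and 1.111. This difference was within the spread between libraries (exact permutation test, two-sided, p = 0.4, where the smallest p that 3 against 3 allows is 0.1). Likewise the ratio of Slc5a7 to Chat in FPKM was 1.73 ± 0.249 (SD, n = 3) in the sham libraries and 1.68 ± 0.145 (SD, n = 3) in the BCP libraries (exact permutation test, two-sided, p = 0.7). With 3 libraries a group these tests cannot pass the threshold, and they do not show that the ratios were equal.

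Of the genes of motor neuron identity, Prph had the lowest log2 fold change of the set and passed the test, Isl1 did not pass, and Mnx1 had too few counts to be tested. Prph (ENSRNOG00000052880, chr7:140742418-140746197) was at 180, 181 and 160 CPM in the sham libraries and at 153, 133 and 127 CPM in the BCP libraries. The highest BCP library stayed below the lowest sham library. Prph fell by 0.34 on the log2 scale (SE 0.0693, 95% interval of the log2 fold change −0.49 to −0.19, adjusted p = 0.00226 by edgeR), a level lower by 20.8%.

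Isl1 (ENSRNOG00000012556, chr2:48487736-48501436), which is also made by sensory neurons and by some neurons of the dorsal horn, was at 2.21, 2.10 and 2.64 CPM in the sham libraries and at 3.30, 2.001 and 2.88 CPM in the BCP libraries, from 28 to 39 counts a library. The groups overlapped, with BCP library 2 the lowest of all and BCP library 1 the highest. The log2 fold change of Isl1 was 0.22 with a wide 95% interval from −0.33 to 0.78 (SE 0.267, adjusted p = 0.594 by edgeR). Mnx1 (ENSRNOG00000046959, chr4:2376958-2381271) had 10, 10 and 10 counts in the sham libraries, against 10, 9 and 4 counts in the BCP libraries. BCP library 3 was low for Mnx1 and the other libraries were alike. Fitted without the filter on low counts, Mnx1 had a log2 fold change of −0.26 (adjusted p = 0.778 by edgeR), so a difference was not detectable at this depth.

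Together, 6 of the 8 tested genes passed edgeR's test with a lower level in BCP rats and 0 passed with a higher level, where 12.1% of all tested genes passed with a lower level and 15.8% with a higher one. At an unadjusted p below 0.05, and by DESeq2, the numbers were also 6 lower and 0 higher. Ache had the mildest fall in level of the 6, by 12.3%, and Prph the steepest, by 20.8%. None of the 8 was past the 2-fold threshold of the study, which 0.107% of all tested genes passed in the lower and 6.35% in the higher direction. The groups did not overlap for 5 of the 8, all lower in BCP rats, as for 19.8% of all tested genes. The median log2 fold change over the 8 genes was −0.197, and over all tested genes it was −0.0143. When sham library 2 or BCP library 2 was left out, 3 of the 8 genes passed in place of 6. Over all genes 1805 passed with a lower and 2352 with a higher level, and with library size alone as the scaling these numbers were 1257 and 2673.

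**Figure D2:**
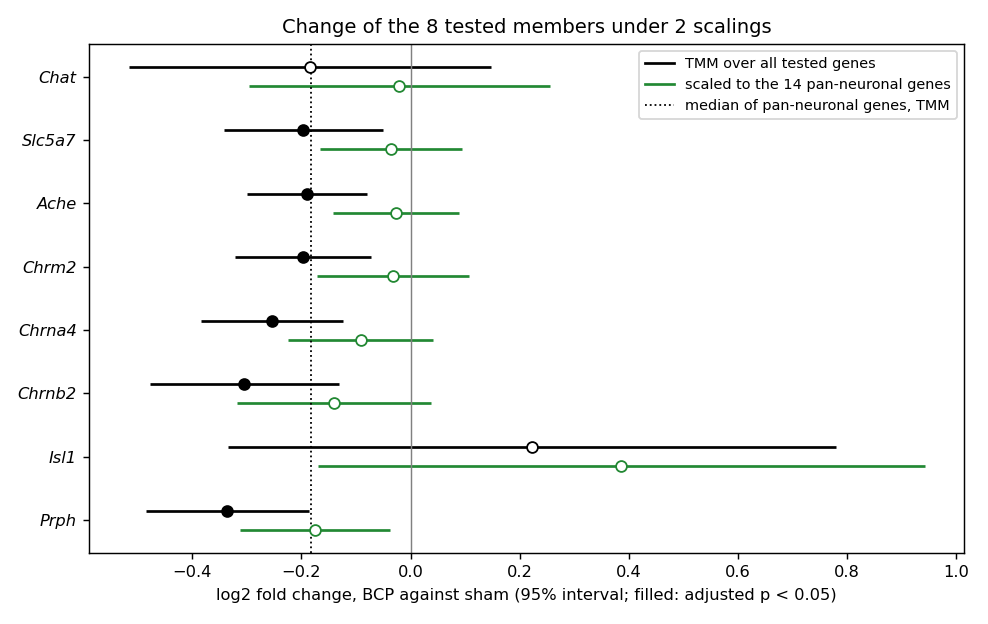
Log2 fold change of BCP against sham with its 95% interval for the 8 tested genes, with TMM over all tested genes (black) and with libraries scaled to 14 pan-neuronal genes (green), filled where the adjusted p was below 0.05. The black points of 7 genes lie left of 0 near the dotted median of the pan-neuronal genes at −0.182, and the green points of those 7 lie closer to 0 with none filled.

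Genes used by all neurons were lower in the BCP libraries as well. Of the 14 pan-neuronal genes 10 passed the test, all lower, against 12.1% of all tested genes with a lower level. The median log2 fold change over the 14 was −0.182. Among them Thy1, a surface glycoprotein of neurons, had a log2 fold change of −0.29 (adjusted p = 1.42e-05 by edgeR) and Elavl3, a neuronal RNA-binding protein, had −0.26 (adjusted p = 0.000477). Eno2, the neuronal enolase, had a log2 fold change of −0.24 (adjusted p = 0.00103), and Map2, a microtubule protein of dendrites, had −0.18 (adjusted p = 0.00115). The summed CPM of the 14 genes was 8036, 8421 and 8302 in the sham libraries, against 7713, 7343 and 7197 in the BCP libraries, without overlap. The 95% intervals of 7 of the 8 tested motor neuron and cholinergic genes held the pan-neuronal median, and that of Prph lay just below it. Among the 7 were the wide intervals of Isl1, from −0.33 to 0.78, and of Chat, from −0.52 to 0.15. An interval that holds the median does not show an equal change. In a bulk sample fewer cells of a type, less RNA per cell and a larger share of RNA from other cells cannot be told apart.

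With the libraries scaled to the 14 pan-neuronal genes, 0 of the 8 genes passed edgeR's test in either direction and their median log2 fold change was −0.0339, still below 0. At an unadjusted p below 0.05 there was 1, Prph, with a lower level, and 0 with a higher one. That scaling moved the median of all tested genes to 0.15, and 1.99% of all tested genes then passed with a lower level and 28.7% with a higher one. On this scale Prph had a log2 fold change of −0.18 (95% interval −0.31 to −0.04, adjusted p = 0.0501 by edgeR), Chrnb2 had −0.14 (adjusted p = 0.232) and Chrna4 had −0.09 (adjusted p = 0.306). Chat, Slc5a7, Ache and Chrm2 lay between −0.04 and −0.02 on this scale. The summed CPM of the 9 genes, as a share of the summed CPM of the pan-neuronal genes, was 9.59%, 10.02% and 9.13% in the sham libraries, against 9.38%, 8.85% and 8.93% in the BCP libraries, so that BCP library 1 lay within the sham range and the other two lay below it.

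The same library of each group was the highest for most genes, while the order of the others varied. Sham library 2 had the highest CPM of its group for 7 of the 9 genes and BCP library 1 had the highest CPM of its group for all 9. The same libraries had the highest summed CPM of pan-neuronal genes in their groups.

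Compared per length, the set covered a wide range of levels, and the order was the same in both groups. Prph was the most abundant at 97.5 ± 6.40 FPKM (SD, n = 3) in the sham libraries and 79.4 ± 7.32 FPKM in the BCP libraries. Chrm2 followed with 34.02 ± 1.69 FPKM in the sham and 30.5 ± 0.128 FPKM in the BCP libraries. Slc5a7 at 26.9 ± 1.11 FPKM and Ache at 26.4 ± 1.80 FPKM in the sham libraries came next and did not differ beyond their spread. Chrna4 had 20.7 ± 1.505 FPKM in the sham libraries, above Chrnb2 at 18.1 ± 0.972 FPKM. Chrnb2 and Chat, at 15.9 ± 3.16 FPKM in the sham libraries, overlapped. The transcription factors stood far below, with Isl1 at 0.929 ± 0.115 FPKM and Mnx1 at 0.580 ± 0.0347 FPKM in the sham libraries, and both rested on 39 counts a library or fewer. These levels depend on the length the authors gave each gene. For Chrm2 the length that the counts and FPKM values imply is 2191 bases, the whole of its annotated locus without an intron, and for Ache it is 6348 bases.

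**Figure D3:**
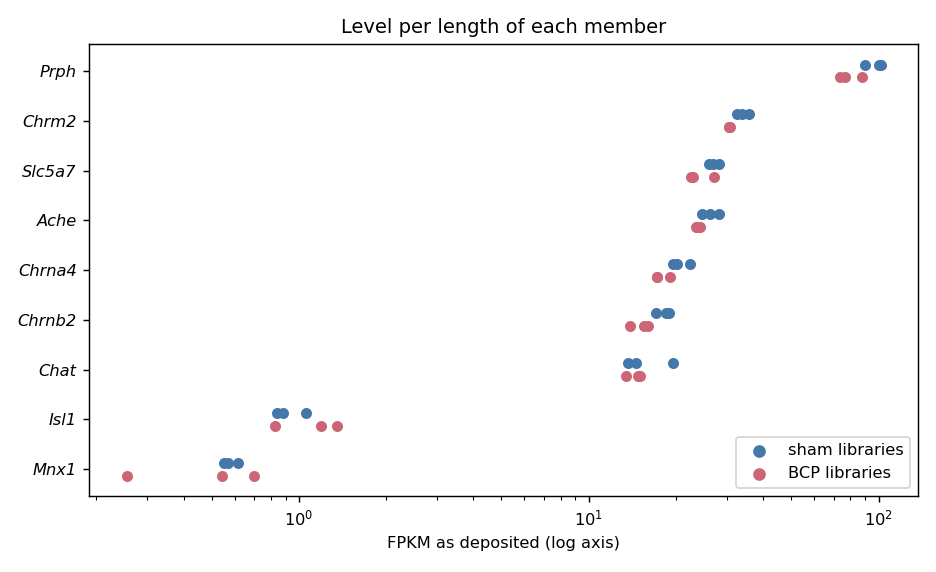
FPKM as deposited on a log axis for the 9 genes in the 3 sham libraries (blue) and the 3 BCP libraries (red), ordered by the sham mean. Prph lies near 97.5 FPKM, Isl1 and Mnx1 near or below 1 FPKM, and the other 6 genes between 15.9 and 34.02 FPKM in the sham means.

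The other receptors for acetylcholine were sparse in the cord and none passed the test by edgeR or DESeq2. Over all tested genes 12.1% passed edgeR's test with a lower and 15.8% with a higher level. Of 14 further nicotinic subunits 13 had a row and 7 were tested, 0 of which passed in either direction (1 lower and 0 higher at an unadjusted p below 0.05), and their median log2 fold change was −0.198. Chrna7, the subunit of the homomeric receptor, was at 16.3, 23.0 and 17.6 CPM in the sham libraries and at 18.1, 17.0 and 16.6 CPM in the BCP libraries (log2 fold change −0.14, adjusted p = 0.438 by edgeR), with overlapping groups and sham library 2 on top. Chrna5, which joins Chrna4 and Chrnb2 in some receptors, was at 4.65, 6.22 and 5.68 CPM in the sham libraries and at 3.38, 3.72 and 4.62 CPM in the BCP libraries (log2 fold change −0.50, adjusted p = 0.0799). Its groups did not overlap, by a narrow margin between sham library 1 and BCP library 3. The subunits Chrna9 and Chrnd of the cochlea and of muscle had 0 counts in all 6 libraries. The 4 other muscarinic receptors were all tested, 0 passed (0 also at an unadjusted p below 0.05), and their median log2 fold change was −0.199. Chrm3, a receptor coupled to calcium release, was at 13.3 CPM in the sham mean and 12.6 CPM in the BCP mean (log2 fold change −0.08, adjusted p = 0.704), and Chrm5 was at 2.92 and 2.46 CPM (log2 fold change −0.26, adjusted p = 0.596).

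Among genes that supply choline, anchor the esterase or assemble the receptors few passed the test. Of 16 such genes 15 were tested, and 1 passed with a lower and 1 with a higher level. Over all tested genes 12.1% passed with a lower and 15.8% with a higher level, so neither call was more frequent here at the adjusted p. At an unadjusted p below 0.05 there were 5 lower and 1 higher, where 5563 of the 14908 tested genes passed in either direction. Groups without overlap were seen for 6 of the 15 in the lower and 1 in the higher direction, against 19.8% and 21.7% of all tested genes. The median log2 fold change was −0.107. Prima1, the membrane anchor of acetylcholinesterase in neurons, was at 85.0, 84.5 and 79.8 CPM in the sham libraries and at 71.4, 68.3 and 61.8 CPM in the BCP libraries (log2 fold change −0.31, SE 0.0634, adjusted p = 0.000951 by edgeR). Ache and the gene of its membrane anchor both had every BCP library below every sham library, as did 19.8% of all tested genes. Slc44a2, a choline transporter of many cell types, was at 70.3, 83.6 and 69.9 CPM in the sham libraries and at 92.8, 89.0 and 92.5 CPM in the BCP libraries (log2 fold change 0.29, adjusted p = 0.00225). Bche, the second cholinesterase, had a log2 fold change of 0.02 (adjusted p = 0.92).

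Of 25 other genes of motor neuron identity and subtype 22 were tested. With a lower level 5 passed, where the share over all tested genes was 12.1%, and with a higher level 3 passed, where it was 15.8%, so the higher calls were no more frequent than over all genes, and the median log2 fold change was −0.0985. DESeq2 called 4 lower and 2 higher. Calca, the gene of calcitonin and of the peptide CGRP that motor neurons and nociceptive afferents carry, was at 43.8, 50.8 and 44.6 CPM in the sham libraries and at 34.1, 27.2 and 27.3 CPM in the BCP libraries. All BCP libraries lay well below the sham libraries. Calca had a log2 fold change of −0.66 (SE 0.0943, adjusted p = 2.69e-05 by edgeR), and with the libraries scaled to pan-neuronal genes it had −0.49 (adjusted p = 0.000483), the only one of the pathway genes that then still passed with a lower level.

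Chodl, a marker of fast motor neurons, was at 102, 116 and 103 CPM in the sham libraries and at 89.9, 89.5 and 85.3 CPM in the BCP libraries (log2 fold change −0.28, adjusted p = 0.00108 by edgeR). Vipr2, a receptor for vasoactive intestinal peptide, was at 7.85, 9.15 and 6.69 CPM in the sham libraries and at 4.73, 6.003 and 4.70 CPM in the BCP libraries (log2 fold change −0.61, adjusted p = 0.0151). Neither gene had overlapping groups, as for 19.8% of all tested genes in the lower direction. Sv2a, a synaptic vesicle protein enriched in slow motor neurons but made by most neurons, had a log2 fold change of −0.24 (adjusted p = 0.00023), and Esrrg, a nuclear receptor of gamma motor neurons that is also widely expressed, had −0.16 (adjusted p = 0.0305).

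Rreb1, Bcl6 and Ngfr were higher in BCP rats. Rreb1, a zinc finger factor, was at 29.1, 26.3 and 23.2 CPM in the sham libraries and at 41.9, 41.4 and 44.1 CPM in the BCP libraries (log2 fold change 0.70, SE 0.0883, adjusted p = 4.53e-06 by edgeR). Bcl6, a transcriptional repressor, had a log2 fold change of 0.24 (adjusted p = 0.0229), and the neurotrophin receptor Ngfr had 0.58 (adjusted p = 0.0386) with overlapping groups. All 3 are made by cells other than motor neurons. The markers of immune cells moved in the same direction, and their part in these values was not tested. The 10 microglial genes had a median log2 fold change of 1.43 and 7 of them passed with a higher level, against 15.8% of all tested genes. Their summed CPM was 319.8, 304.9 and 247.7 in the sham libraries, against 744.0, 758.7 and 875.0 in the BCP libraries.

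The C bouton is a large cholinergic synapse on the motor neuron's cell body, made by interneurons called V0c. Of 7 genes of this synapse 6 were tested. By edgeR, by DESeq2 and at an unadjusted p below 0.05, 2 passed with a lower and 0 with a higher level. Over all tested genes 12.1% passed edgeR's test with a lower and 15.8% with a higher level, and 2 of 6 rests on few genes. The median log2 fold change was −0.129. Tmem117, a membrane protein, was at 63.1, 58.7 and 67.6 CPM in the sham libraries and at 52.6, 54.0 and 54.3 CPM in the BCP libraries (log2 fold change −0.24, adjusted p = 0.0126 by edgeR). Its groups did not overlap, as for 19.8% of all tested genes in the lower direction.

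Genes known to rise in or around motor neurons whose axon has been cut were mixed. The median log2 fold change of the 10 tested of 11 such genes was 0.0132. Over all tested genes 12.1% passed with a lower and 15.8% with a higher level. Of the 10, 0 passed with a lower level (1 at an unadjusted p below 0.05, 0 by DESeq2) and 3 with a higher level (2 by DESeq2). The 3 were Gfap, an astrocyte filament included in the list for its rise around injured motor neurons (log2 fold change 0.80, adjusted p = 5.27e-05 by edgeR), Ngfr, and the transcription factor Jun (log2 fold change 0.18, adjusted p = 0.0391). Atf3, a factor of injured neurons, had a log2 fold change of 0.89 (adjusted p = 0.0842), and Gap43, a growth cone protein, had −0.05 (adjusted p = 0.65). Sprr1a had at most 1 count in any library.

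**Figure D4:**
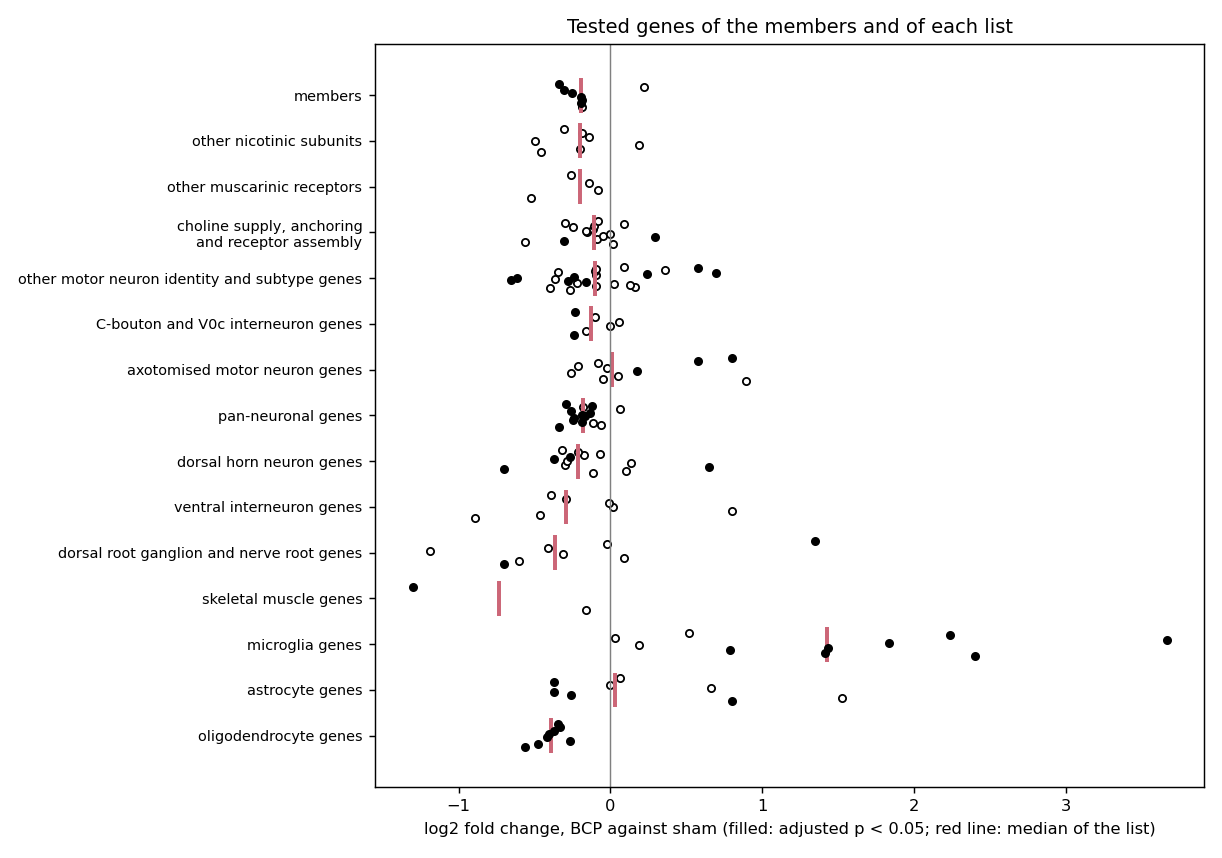
Log2 fold change of BCP against sham for each tested gene of the motor neuron and cholinergic set (members), of 6 lists of related genes and of 8 lists of cell type markers, filled where the adjusted p was below 0.05, with the median of each list as a red line. The medians of the set and of the pan-neuronal genes lie close together at −0.197 and −0.182, that of microglia lies at 1.43 and that of oligodendrocytes at −0.388.

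Other cells of the sample moved with the group too. Among genes of dorsal horn neurons 3 of 13 tested passed with a lower and 1 with a higher level, where 12.1% and 15.8% of all tested genes did. The median log2 fold change was −0.211, and the gene that rose was Pdyn, the prodynorphin gene (log2 fold change 0.65, adjusted p = 0.000883 by edgeR). Of those that fell Sst, the somatostatin gene, had a log2 fold change of −0.27 (adjusted p = 0.0138) and Lbx1, a developmental factor of dorsal neurons, had −0.70 (adjusted p = 0.0345). Among ventral interneuron genes 0 of 7 tested passed by edgeR or DESeq2 (2 lower and 0 higher at an unadjusted p below 0.05), with a median of −0.291, and the most abundant, Foxp2, had a log2 fold change of 0.02 (adjusted p = 0.958).

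Roots and ganglia could add RNA of neurons that also make Prph, Isl1 and Calca. The genes of dorsal root ganglion and nerve root had a summed CPM of 114.3, 105.8 and 109.7 in the sham libraries, against 105.9, 102.8 and 98.07 in the BCP libraries. Most of this sum was Drp2 (log2 fold change −0.02, adjusted p = 0.829 by edgeR), a gene of Schwann cells. Without Drp2 the other 11 genes summed to 21.35, 18.93 and 24.93 CPM in the sham libraries, against 15.05, 17.22 and 13.71 CPM in the BCP libraries. The sums of the groups overlapped with Drp2 and did not overlap without it, with BCP lower. Prph and Calca were also lower without overlap, as were 19.8% of all tested genes. Isl1 went the other way, with overlapping groups and a log2 fold change of 0.22. The median log2 fold change over the 8 tested genes of the list was −0.363, and their part in the values of Prph, Isl1 and Calca was not tested. Of 8 tested Trpv1, the capsaicin receptor, passed with a lower level (log2 fold change −0.70, adjusted p = 0.0225 by edgeR) and Egr2, a factor of Schwann cells, passed with a higher level (log2 fold change 1.35, adjusted p = 0.0315). DESeq2 called neither. Mrgprd, which marks nonpeptidergic sensory neurons, had 0 counts in all 6 libraries. Of 10 skeletal muscle genes 7 had a row and 2 were tested, and Tnnc2, a troponin of fast muscle, fell from 4.56 to 1.86 CPM in the means (log2 fold change −1.30, adjusted p = 0.00114). Tnnt3, another troponin of fast muscle, had too few counts to be tested and lay the other way, with 2, 2 and 0 counts in the sham libraries, against 8, 18 and 19 counts in the BCP libraries.

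Of the 8 oligodendrocyte genes all 8 passed with a lower level, against 12.1% of all tested genes, with a median log2 fold change of −0.388. Among them were the myelin genes Mag (log2 fold change −0.42, adjusted p = 1.18e-07 by edgeR), Cnp (−0.37, adjusted p = 9.77e-07) and Mobp (−0.41, adjusted p = 3.43e-06). Of the 8 astrocyte genes 3 passed with a lower and 1 with a higher level, where 12.1% and 15.8% of all tested genes did. The median was 0.029. The glutamate transporter Slc1a2 had a log2 fold change of −0.37 (adjusted p = 1.65e-06), the calcium-binding protein S100b had −0.37 (adjusted p = 5.36e-05) and the folate enzyme Aldh1l1 had −0.26 (adjusted p = 0.0123), while Gfap was the one that rose. Among microglial genes Cd68, of lysosomes, had a log2 fold change of 3.66 (adjusted p = 1.12e-12) and the fractalkine receptor Cx3cr1 had 1.42 (adjusted p = 2.29e-10), followed by Aif1 with 2.40 (adjusted p = 2.63e-10) and P2ry12 with 0.79 (adjusted p = 4.75e-05). The part of these cell types in the values of the motor neuron and cholinergic genes was not tested.

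Long noncoding RNAs (lncRNAs) near the genes were examined at the 10000 bases that the study used for targets in cis. Of these there were 16, near 5 genes. Chat held 4 inside its locus, Chrnb2 had 7 around it, Chrna4 and Prph had 2 each and Isl1 had 1. Of the 16, 9 were tested among 12157 lncRNAs and 0 passed by edgeR, where 0.395% of all tested lncRNAs passed with a lower and 1.57% with a higher level. DESeq2 also called 0 of them. In simulated counts over all tested lncRNAs most changes of 2-fold or less were missed. The SE of the log2 fold change of the 9 ran from 0.118 for NONRATT016605.2 to 0.491 for NONRATT016601.2. The simulation drew on all lncRNAs, so it does not tell which differences were detectable for these 9. The unadjusted p was below 0.05 for 1, NONRATT011773.2 at chr16:8578225-8580826 inside Chat, with a log2 fold change of −0.78 (adjusted p = 0.302). It had 46, 72 and 37 counts in the sham libraries, against 23, 32 and 27 counts in the BCP libraries, and sham library 2 was the highest, as it was for Chat. The libraries kept the strand, but whether the counting used it is not given in the sources used here, so reads of Chat and of a transcript inside it may not be separable. The most abundant were NONRATT016602.2 at chr2:189086867-189087667 (1420 counts in all, log2 fold change −0.07, adjusted p = 0.887) and NONRATT016604.2 at chr2:189102181-189103162 (1191 counts in all, log2 fold change 0.09, adjusted p = 0.878), both near Chrnb2.

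The genes whose pattern was most like that of Chat within the groups were searched among 11964 genes with a mean of at least 5 CPM over the 6 libraries. The measure was Pearson's r of log2 CPM over the 6 libraries after the mean of each group was removed. The highest were Tbc1d9b (r = 0.996), Bbs10 (r = 0.994), Apc2 (r = 0.994), Rab3il1 (r = 0.993) and MGC105649 (r = 0.992). MGC105649 was below 1 CPM in each sham library and reached that mean through the BCP libraries, at 9.24 to 10.65 CPM. All 5 had their highest sham value in library 2, as Chat had, and the 6 points share library and depth, so r is a description only. Within the set r with Chat was 0.822 for Chrm2, 0.812 for Ache, 0.800 for Chrna4, 0.585 for Prph, 0.494 for Slc5a7, 0.240 for Chrnb2 and −0.341 for Isl1.

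The direction of each of the 8 tested genes was the same under all 13 other settings of the fit, whereas the calls were not. Slc5a7 lost its call in 6 of the 13, Chrm2 in 4, Ache and Chrnb2 in 2 each, and Chrna4 and Prph in 1 each, which for both was the scaling to pan-neuronal genes.

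**Figure D5:**
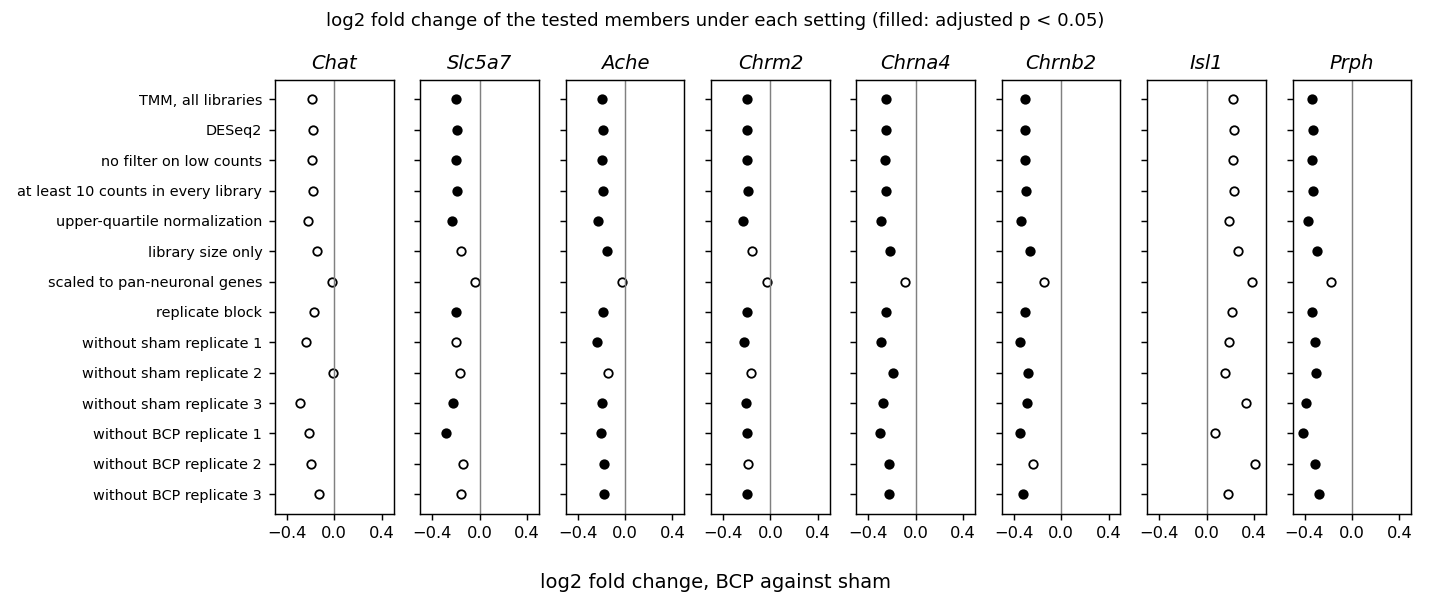
Log2 fold change of BCP against sham for the 8 tested genes under the main setting (top line) and the 13 alternatives below it, filled where the adjusted p was below 0.05. Points of Chat, Slc5a7, Ache, Chrm2, Chrna4, Chrnb2 and Prph lie left of 0 in every line and those of Isl1 lie right of it, and in the line scaled to pan-neuronal genes none is filled.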

How the data were processed

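RNA was sequenced from 3 sham and 3 BCP libraries, grouped by their labels. The authors cleaned reads (Seqtk), aligned them by HISAT2 2.0.4 to the Rnor_6.0 genome and computed FPKM with StringTie 1.3.0 on annotated genes, taking lncRNA transcripts from NONCODE and Ensembl and adding assembled ones. The authors deposited raw counts beside FPKM values for genes and for lncRNA transcripts. Which program counted, whether it used strand and how it handled multi-mapped reads are not given in the sources used here. Dividing the deposited counts by library totals gave whole gene lengths for 86.7% of FPKM values within 0.01 bases.

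The main test was edgeR 4.0.16 (R 4.3.3, limma 3.58.1) with filterByExpr, TMM, robust quasi-likelihood dispersion, condition as the only term, and Benjamini-Hochberg adjustment over all tested genes or, in a fit of their own, lncRNAs. Printed CPM are TMM-normalized. The SE is the log2 fold change divided by the square root of the F statistic, and intervals are 95%. FPKM as deposited served only for levels between genes. The smallest library had 11779485 counts on genes. Counting error alone is therefore small for all genes of the set but Isl1 and Mnx1. PCR duplicates may be among the counts.

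Alternatives were DESeq2 1.42.0, unfiltered genes, a minimum of 10 counts in each library, normalization by upper quartile or by library size, TMM on 14 pan-neuronal genes, the fold threshold of 2 of the study, the replicate number as a block, and each library left out in turn. The code was tested on simulated counts, in which false calls among genes and lncRNAs exceeded the nominal rate and most changes of the small size seen in the set, and most lncRNA changes of 2-fold or less, were missed. The members and lists were chosen with earlier results of these data known. The text names all members, in each list up to 4 passing genes a direction by smallest p, where none passed the 2 most abundant genes, the 5 genes most like Chat, and the 2 lncRNAs with most counts. Names beyond this (Esrrg, Bche, Atf3, Gap43, Sprr1a, Chrna9, Chrnd, Mrgprd, Drp2, Tnnt3, Tubb3 and NONRATT011773.2), and the promoter motifs, were chosen after their values were seen. A few genes within the rule are not reported here. Figures were drawn with matplotlib 3.10.9.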

Additional observations from a re-analysis of the deposited data

How the results depend on the processing

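Of the 8 tested genes 6 were lower in BCP rats, and this number was 6 with DESeq2, without the filter, with at least 10 counts in every library and with upper-quartile normalization, 4 with library size only, 0 when scaled to the pan-neuronal genes, 0 with the added 2-fold threshold, and between 3 and 6 when 1 library was left out (3 without sham library 2 and 3 without BCP library 2). The number of passing genes of the related lists that were lower was 8, against 14 with upper-quartile normalization, 1 when scaled to the pan-neuronal genes and between 5 and 10 with 1 library left out (5 without sham library 3 and 5 without BCP library 3). The number that were higher was 6, against 9 when scaled to the pan-neuronal genes, 7 with library size only and 4 with the replicate block. It was between 3 and 6 with 1 library left out (3 without sham library 2 and 3 without BCP library 2). Passing markers of cell types, 26 lower and 10 higher, kept within 1.5 times of these numbers in each of the 12 alternatives run for them, which left out the pan-neuronal scaling, and 0 lncRNAs near a gene of the set passed in the 12 alternatives run for lncRNAs. The median of the 8 genes' log2 fold change, −0.197, was −0.0339 when scaled to the pan-neuronal genes and between −0.251 and −0.156 in the others. The sign of each tested gene of the set was kept in all 13 alternatives. The cause was not tested.

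Sham and BCP libraries carry the same numbers 1 to 3, but the numbers did not pair them. The correlations of same-numbered libraries' deviations from their group means were −0.106, 0.0336 and −0.0369, and 1 of 6 libraries correlated best with its own number. With the replicate block 6 genes of the set passed as before, with a median log2 fold change of −0.199 in place of −0.197, and over all genes 1597 passed with a lower and 2217 with a higher level in place of 1805 and 2352. Depth limits what can be said of Isl1, Mnx1 and the sparse receptors, and 3 libraries a group limit all tests.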
